A study of Mus musculus with 2 samples.

Results

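Fatty acid handling in the absorptive epithelium was followed through 9 genes that were chosen by name: Fabp1, Fabp2, Dbi, Scp2, Acsl5, Slc27a4, Cd36, Plin2 and Plin3, which are 9 of the 32285 genes measured. All 9 were found once in both gene lists, and all 9 passed the filter on low counts in each of the 4 comparisons. The series concerns mice with less of 2 muscarinic receptor subtypes, and its single cell suspensions came from control animals. Both libraries analysed here were of that kind: control 1, whose title names M1, and control 2, whose title names M3, each from the proximal small intestine of a C57BL/6 mouse background, with no agent named and no age given in the labels. Villus and crypt cells had been released in turn with 20 mM EDTA for 60 min and TrypLE for 10 min, strained at 30 µm, pooled, and used at 80% viability or more. With 1 group only, the comparisons are between cell classes and positions within each library.

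Long-chain fatty acids that reach the enterocyte, the absorptive cell of the villus, are poorly soluble and are carried in its cytosol by small binding proteins. Activation to acyl-CoA by synthetases traps them and feeds re-esterification to triglyceride, which leaves the cell in chylomicrons or waits in lipid droplets. Fabp1 (liver-type) and Fabp2 (intestinal) encode the main cytosolic fatty acid binding proteins of the small intestine, Dbi encodes the acyl-CoA binding protein, and Scp2 encodes a sterol carrier and thiolase. Acsl5 encodes a long-chain acyl-CoA synthetase, Slc27a4 a fatty acid transport protein with synthetase activity, and Cd36 a surface fatty acid receptor. Plin2 and Plin3 encode perilipins, proteins that coat lipid droplets.

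The bases ahead of 3 members are shown because their summed levels along the villus took different courses. Over all enterocyte-like cells, Fabp1 and Fabp2 were highest below its top and Slc27a4 at its top. Neither Fabp1 nor Fabp2 passed the test of top against bottom, and the Slc27a4 call depended on the cells used, as given below. The bases are from RefSeq on GRCm38.p6, which held an entry for all 9 members, and all 3 genes lie on the plus strand. Positions count back from the RefSeq start, whose preceding base is -1. Capitals mark letters found on either strand of 5 motifs, written as read on the plus strand. The letters searched for the HNF4 factors were CAAAGTCCA. Those of the GATA factors were AGATAA, those shared by nuclear receptors AGGTCA and those of the CDX factors TTTATG. The core promoter box was searched as TATAAA.
Fabp1, chr6:71199629-71199826: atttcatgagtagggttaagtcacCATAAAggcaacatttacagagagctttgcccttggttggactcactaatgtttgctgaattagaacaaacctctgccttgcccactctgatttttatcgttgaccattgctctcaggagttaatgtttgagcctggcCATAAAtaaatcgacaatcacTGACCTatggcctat
Fabp2, chr3:122894822-122895071: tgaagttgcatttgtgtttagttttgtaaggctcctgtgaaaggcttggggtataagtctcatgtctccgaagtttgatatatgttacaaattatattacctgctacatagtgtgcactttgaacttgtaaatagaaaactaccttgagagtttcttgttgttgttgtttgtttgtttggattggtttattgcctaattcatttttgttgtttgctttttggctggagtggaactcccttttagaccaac
Slc27a4, chr2:29802384-29802633: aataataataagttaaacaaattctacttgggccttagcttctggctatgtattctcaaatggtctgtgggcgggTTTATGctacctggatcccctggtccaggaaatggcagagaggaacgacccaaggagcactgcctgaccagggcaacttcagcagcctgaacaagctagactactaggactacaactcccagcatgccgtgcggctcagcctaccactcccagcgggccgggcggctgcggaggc

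The Fabp1 window held the CDX letters at -226 and -88 and the nuclear receptor letters at -67. Its last 52 bases are not shown because an annotated transcript starts there, and they held the core promoter letters at -30 and further nuclear receptor letters at -9. Slc27a4 had 1 match, the CDX letters at -175, and Fabp2 had none. Of 32851 promoters of 250 bases, 10.8% held the CDX letters, 14.02% the nuclear receptor letters, 12.4% the core promoter letters, 9.99% the GATA factor letters and 0.384% the HNF4 letters. The letters are a description of these windows and no test was made on them.

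On GRCm38 (GENCODE M21), Fabp1 spans chr6:71199827-71205023, Fabp2 chr3:122895072-122899506, Acsl5 chr19:55251938-55297720 and Slc27a4 chr2:29802634-29817522, all on the plus strand. Dbi spans chr1:120113280-120121078, Scp2 chr4:108043839-108144998, Cd36 chr5:17781690-17888801, Plin2 chr4:86648386-86670060 and Plin3 chr17:56277476-56292873, all on the minus strand. Fabp2 overlaps 4933405D12Rik, Acsl5 overlaps Zdhhc6, and Scp2 overlaps Podn and Mir6397, so reads there depend on how overlaps were counted, which is not given in the sources used here.

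Control 1 held 9342 barcodes with 54451793 UMIs (unique molecular identifiers, 1 per captured RNA molecule) and control 2 held 7109 with 36139325; 7115 and 4714 cells were kept. The libraries shared 17 barcodes, 8 of them among kept cells. Levels are UMIs per 1000000 of a class's summed UMIs (CPM), a scale that is not divided by gene length because a molecule is counted once at its 3' end. Enterocyte-like cells numbered 3382 and 2283, progenitor-like 625 and 298, goblet-like 115 and 252, and T/NK-like 2559 and 1618; Paneth-, enteroendocrine- and tuft-like classes had 8 to 24 cells a library. Summed levels of the 10 enterocyte markers were 4759 and 3423 CPM in enterocyte-like cells against 101 and 73.7 CPM in T/NK-like cells, and those of the 8 stem or crypt markers were 2572 and 1711 CPM in progenitor-like cells against 25.7 and 37.8 in enterocyte-like cells. The same markers named the classes, so these differences follow from the naming and do not test it. The median progenitor-like cell had 0 CPM of the stem or crypt markers in both libraries. Most enterocyte-like barcodes were shallow (median 2399.5 and 2354 UMIs), and 548 and 667 of them carried Malat1, a long non-coding RNA kept in the nucleus, at 1000 CPM or more. Some results that change between these Malat1-rich cells and the rest are given for both. Courses along the villus are given for all enterocyte-like cells, with only part of their changes in Malat1-rich cells.

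The first question was which epithelial class carries these transcripts. All 9 members were higher in enterocyte-like cells than in the sum of the other epithelial classes, where 26.4% of the 11529 genes tested were higher, 24.2% lower and so 50.6% changed at an adjusted p under 0.05. The members' median log2 fold change was 3.56, against 0.05 over all tested genes. The sum of the other classes was made up differently in each library. Progenitor-like cells gave it 4758023 UMIs in control 1 and 1685772 in control 2, goblet-like cells 1559801 and 3349985. The part of this make-up in its levels was not tested. UMIs summed per library and side were tested with edgeR (quasi-likelihood, library as a block), and p-values were adjusted by Benjamini-Hochberg across the tested genes. With the block, the p-values rest on how far the difference between sides varied between the 2 libraries, a spread that edgeR estimates with information shared over genes. Whether each library is a separate animal is not in the labels, so that spread may be technical.

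Fabp1 was the most abundant member. Its level was 23809 CPM in control 1 and 21071 in control 2 in enterocyte-like cells, against 1971 and 980 CPM in the other classes (log2 fold change 4.37 ± 0.16 SE, adjusted p = 0.00105). The median enterocyte-like cell spent 3.18% of its UMIs on this gene in control 1. Fabp2 followed at 20305 and 14285 CPM, against 1679 and 865 CPM (4.18 ± 0.11 on the log2 scale, adjusted p = 0.00105). For both genes, each enterocyte sum lay far above each sum of the other side.

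The acyl-CoA and sterol carriers were several times less abundant than Fabp1. Dbi stood at 3732 and 3351 CPM in enterocyte-like cells and at 1083 and 619 CPM elsewhere in the epithelium (log2 fold change 2.47 ± 0.15, adjusted p = 0.00105). Scp2 stood at 2736 and 2711 CPM, against 365 and 234 CPM (3.58 ± 0.15, adjusted p = 0.00105). Dbi therefore had the broader distribution of the pair.

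The activation and uptake genes were expressed at lower levels. Acsl5 reached 488 and 346 CPM in enterocyte-like cells against 61.8 and 35.3 CPM (3.49 ± 0.17 on the log2 scale, adjusted p = 0.00105). Slc27a4 reached 169 and 214 CPM against 27.6 and 15.1 CPM (3.56 ± 0.28, adjusted p = 0.00127). Cd36 was the scarcest member, at 46.4 and 48.0 CPM against 4.99 and 1.08 CPM (4.38 ± 0.44, adjusted p = 0.00189). At this depth 11.0% and 11.3% of enterocyte-like barcodes held a Cd36 UMI.

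The perilipins, the droplet coat genes, differed from each other in how far they were limited to enterocytes. Plin3 stood at 384 and 368 CPM in enterocyte-like cells and 86.6 and 52.4 CPM in the other classes (log2 fold change 2.83 ± 0.19, adjusted p = 0.00109). Plin2 stood at 79.9 and 56.4 CPM, against 41.1 and 20.4 CPM (1.57 ± 0.19, adjusted p = 0.00293), the lowest log2 fold change of the 9. Enterocyte-like cells held 93.4% and 94.9% of all Fabp1 UMIs of the kept cells but 68.3% and 63.4% of all Plin2 UMIs, of which T/NK-like cells held 11.6% and 17.9%.

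**Figure D1:**
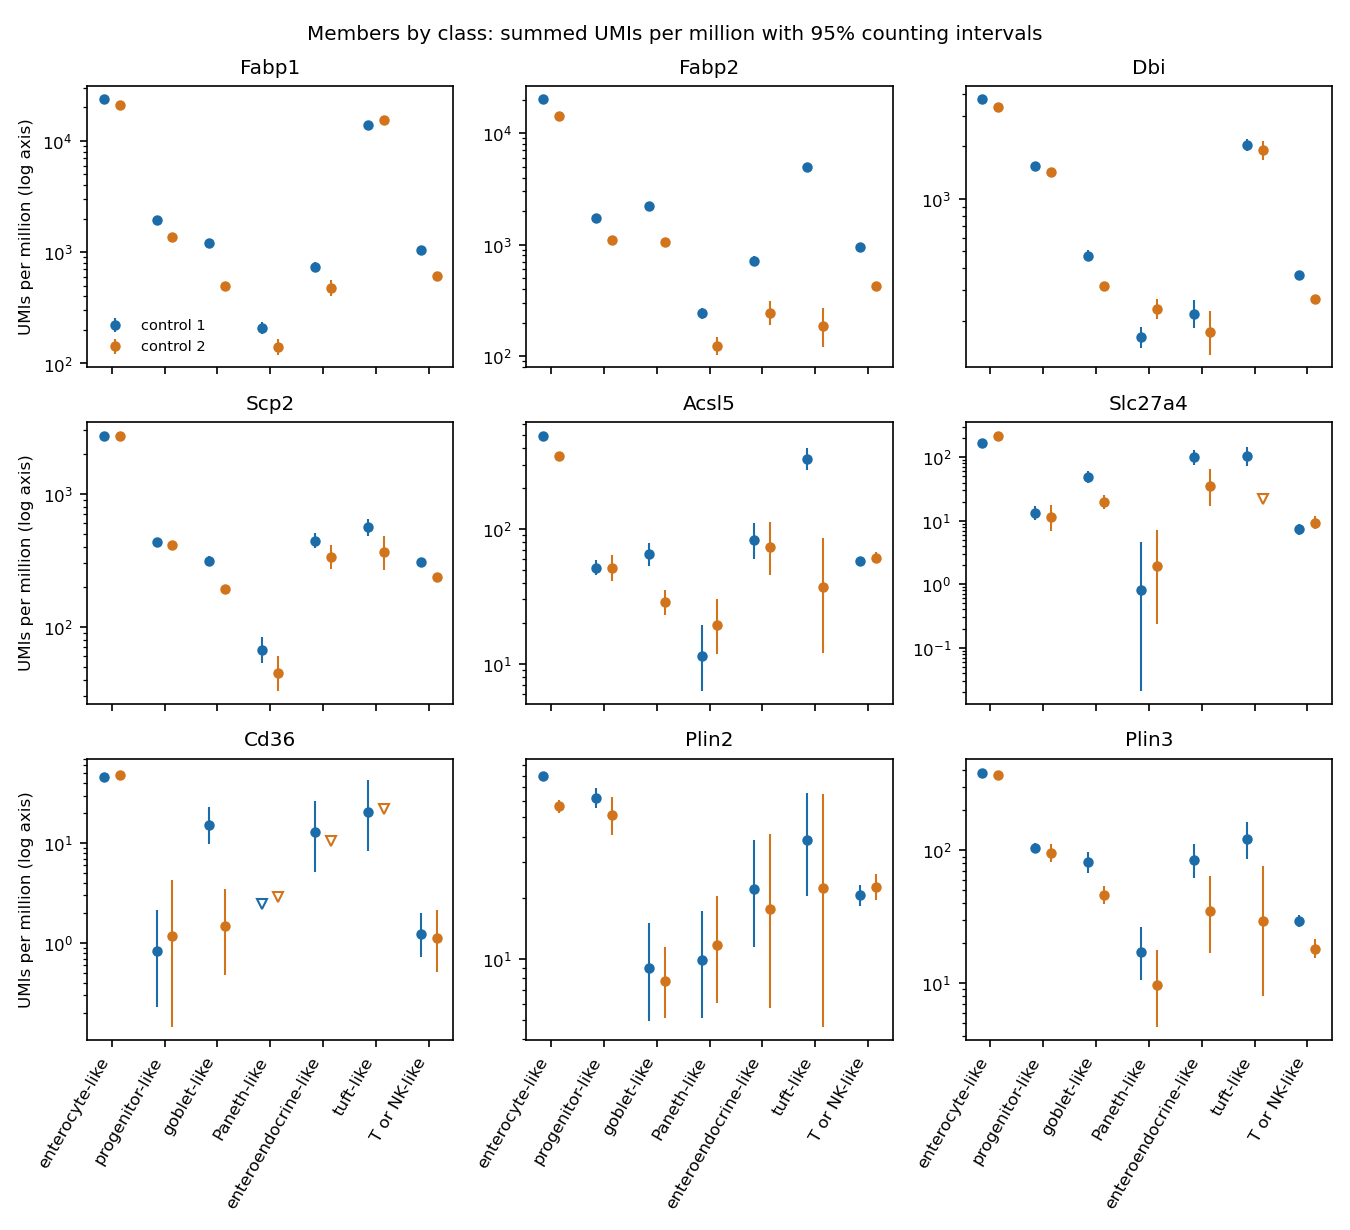
Level of each member (UMIs per 1000000 of the class's summed UMIs, log axis) in 6 epithelial-like classes and in T/NK-like cells, 1 point per library with exact 95% Poisson intervals that cover counting error only. Open triangles mark a count of 0 and stand at the level that 3 UMIs would give. Enterocyte-like sums are highest for all 9 members, and tuft-like sums come next for Fabp1 and Dbi in both libraries.

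The order of the classes differed between members. For Fabp1 it ran from enterocyte-like over tuft-like (13892 and 15476 CPM) and progenitor-like (1960 and 1373 CPM) cells to goblet-like (1219 and 497 CPM), enteroendocrine-like (742 and 478 CPM) and Paneth-like (208 and 142 CPM) cells. Goblet-like and enteroendocrine-like levels overlapped between libraries, while the other neighbours did not. Dbi had the same first 3 classes, at 3732 and 3351, 2040 and 1900, and 1551 and 1430 CPM. For Scp2, tuft-like (557 and 362 CPM), progenitor-like (435 and 409 CPM) and enteroendocrine-like (444 and 334 CPM) cells could not be ordered beyond the spread between libraries. Plin2 in progenitor-like cells (62.0 and 51.0 CPM) overlapped with its enterocyte level. Slc27a4 was higher in enteroendocrine-like (101 and 35.1 CPM) than in progenitor-like cells (13.5 and 11.3 CPM) in both libraries, from 24 and 10 enteroendocrine-like cells. Paneth-like cells had the lowest Fabp1, Scp2 and Plin3 of the 6 classes, and 0 Cd36 UMIs in 16 and 13 cells, which allows up to 2.46 and 2.92 CPM.

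Tuft-like cells, chemosensory cells of the epithelium, combined high Fabp1 with low Fabp2. In control 2, 8 cells held 2093 Fabp1 UMIs and 25 Fabp2 UMIs, or 1.19 Fabp2 UMIs per 100 of Fabp1 (95% interval 0.771 to 1.77), where enterocyte-like cells held 67.8. In control 1, 19 cells held 4712 and 1683, or 35.7 per 100 (33.8 to 37.8), where enterocyte-like cells held 85.3. One barcode of 92171 UMIs carried 91.1% of that Fabp2 sum; without it the ratio was 7.57 per 100, with Fabp1 at 8020 CPM and Fabp2 at 607 CPM. Fabp1 UMIs outnumbered Fabp2 UMIs in 15 of 19 and 8 of 8 tuft-like cells. All 8 tuft markers were detected in both sums, and the 10 enterocyte markers stood at 2577 CPM in control 1 (9 of 10 detected) and 51.8 CPM in control 2 (6 of 10). Rbp2, a cytosolic retinol binding protein gene of about the abundance of Fabp2 in enterocytes, gave 35.5 and 1.00 per 100 Fabp1 UMIs, close to Fabp2 in each library. Dbi was at 14.7 and 12.3 per 100, near its enterocyte ratios of 15.7 and 15.9. With fewer than 20 cells a library, tuft-like cells entered no test of their own.

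The next comparison set crypt progenitors against villus absorptive cells. All 9 members were lower in progenitor-like cells, where 31.1% of the 10837 tested genes were lower, 30.0% higher and 61.1% either, and their median log2 fold change was -3.44 against -0.03 over all tested genes. The size of the difference varied widely. Cd36 was nearly absent from progenitors, with 4 and 2 UMIs (0.841 and 1.19 CPM) against 46.4 and 48.0 CPM in enterocyte-like cells (log2 fold change -6.03 ± 0.30, adjusted p = 1.62e-06). Slc27a4 was at 13.5 and 11.3 CPM against 169 and 214 CPM (-4.30 ± 0.22, adjusted p = 1.62e-06).

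UMIs of both fatty acid binding protein genes were counted in progenitor-like cells. Fabp1 stood at 1960 and 1373 CPM (-4.20 ± 0.33 on the log2 scale, adjusted p = 9.53e-06) and Fabp2 at 1743 and 1099 CPM (-4.05 ± 0.30, adjusted p = 7.56e-06). T/NK-like cells had 1056 and 606 CPM of Fabp1 and 949 and 426 CPM of Fabp2. Whether progenitors stood above them changed with Malat1: Fabp1 was at 607 and 424 CPM in Malat1-rich progenitor-like cells, below the T/NK level of each library, and at 2678 and 2749 CPM in Malat1-poor ones, above it. Fabp2 was at 731 and 621 CPM in Malat1-rich and at 2280 and 1792 CPM in Malat1-poor progenitors. Within the class, the cluster led by Aldh1b1 and Oat held 5243 and 3425 CPM of Fabp1. The other, led by the crypt gene Olfm4 and the cycling gene Ube2c, held 643 and 491 CPM. No order is read between this cluster and T/NK-like cells, whose mean Fabp1 of 831 CPM went to 494 CPM without the 6% highest doublet scores. For Dbi the Olfm4 cluster held 1255 and 1198 CPM, against 367 and 266 CPM in T/NK-like cells.

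Scp2 (log2 fold change -3.12 ± 0.21), Acsl5 (-3.44 ± 0.18) and Plin3 (-2.34 ± 0.16) were also lower in progenitors, with adjusted p from 2.04e-06 to 4.67e-06. Dbi was lower by less, at 1551 and 1430 CPM against 3732 and 3351 CPM (-1.68 ± 0.21, adjusted p = 0.000115). Plin2 differed least, at 62.0 and 51.0 CPM against 79.9 and 56.4 CPM (-0.69 ± 0.16, adjusted p = 0.0049). The Plin2 call was lost in 4 of 10 alternatives, with adjusted p of 0.215 when scaled by total UMIs only, 0.0812 without the library block, 0.1002 when thinned to 1000 UMIs a cell and 0.0801 in Malat1-rich cells.

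Goblet cells, which secrete mucus, were compared with enterocytes as the other frequent differentiated class. All 9 members were lower in goblet-like cells, where 27.1% of the 10264 tested genes were lower, 22.1% higher and 49.2% either, with a median log2 fold change of -3.12 against -0.06 over all tested genes. Fabp1 showed the largest difference, at 1219 and 497 CPM (-4.77 ± 0.45, adjusted p = 0.000451), and Slc27a4 the smallest, at 49.4 and 20.0 CPM (-2.52 ± 0.39, adjusted p = 0.00267). Cd36, with 24 and 5 UMIs, stood at 15.4 and 1.49 CPM (-2.81 ± 0.62, adjusted p = 0.0110), and in Malat1-poor cells its call was lost (-0.91, adjusted p = 0.326). The other 6 members had log2 fold changes between -3.40 and -2.54. All 9 levels in goblet-like cells were higher in control 1 than in control 2. The 10 enterocyte markers there were higher in control 1 as well, at 492 and 89.6 CPM, and their part in the member levels was not tested.

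The order of the 2 binding proteins was turned around in goblet-like cells. Fabp2 was at 2227 and 1055 CPM and Fabp1 at 1219 and 497 CPM, or 183 (173 to 193) and 212 (200.01 to 225) Fabp2 UMIs per 100 of Fabp1. Single cells showed the same: Fabp2 UMIs outnumbered Fabp1 UMIs in 81.7% and 66.3% of goblet-like cells, against 44.4% and 21.5% of enterocyte-like cells. In T/NK-like cells the ratio was 89.9 and 70.3 per 100, close to that of enterocyte-like cells of the same library.

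**Figure D2:**
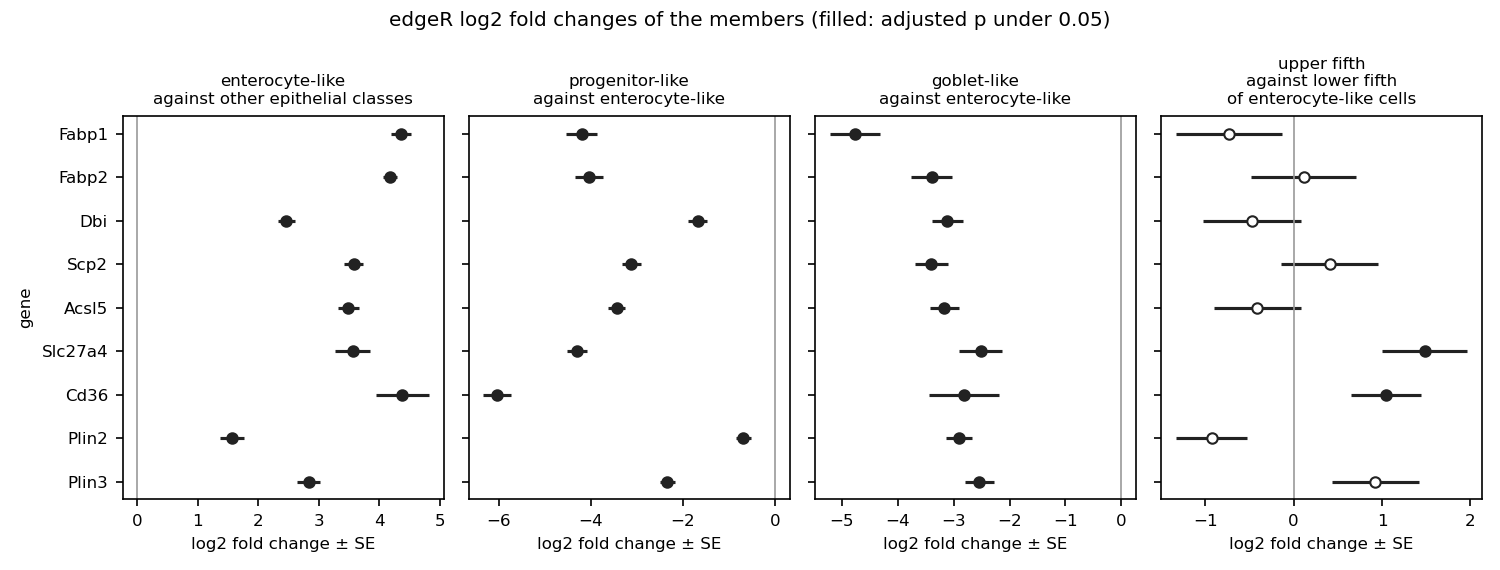
Log2 fold change with its standard error for each member in the 4 comparisons (x axis, scales differ between panels; y axis, gene), from edgeR's quasi-likelihood test on 2 sums against 2. Filled points have an adjusted p under 0.05: 9, 9 and 9 members in the first 3 panels and 2, Slc27a4 and Cd36, in the last.

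Position along the villus was read from 17 landmark genes that are not lipid genes, 9 of the upper and 8 of the lower villus, and each library's enterocyte-like cells were divided into 5 equal bins by the difference between both scores, bin 1 lowest and bin 5 highest on the villus. A cell had a median of 7 (control 1) and 9 (control 2) landmark UMIs, and 38.2% and 39.1% of cells lay within 0.1 SD of a boundary, so neighbouring bins share many cells of like position.

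Fabp1 was far higher in villus bins than in progenitor-like cells and lower in bin 5 than in bin 3. From progenitor-like cells its level went from 1960 to 19500 CPM in bin 1 of control 1, to 33613 CPM in bin 3 and to 15472 CPM in bin 5. In control 2 it went from 1373 to 21103, 32593 and 7503 CPM. The step from progenitor to bin 1 was 9.95 and 15.4 times, and bin 5 had 0.460 and 0.230 of the level of bin 3. Fabp2 followed the same course, from 1743 and 1099 CPM to 13104 and 11447 (bin 1), 30154 and 22587 (bin 3), and 18702 and 7318 CPM (bin 5).

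Dbi and Scp2 were also highest in bin 3 or 4. Dbi reached 4606 and 4564 CPM in bin 3 and 3033 and 1605 CPM in bin 5. Scp2 stood at 4018 and 3963 CPM in bin 3 and at 2965 and 1729 CPM in bin 5. The drop to the top was larger in control 2 for all 4 carriers, so that for Fabp2 and Scp2 bin 5 stood above bin 1 in control 1 and below it in control 2.

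The activation and uptake genes took other courses. Acsl5 went from 51.7 and 51.6 CPM in progenitor-like cells to its maximum of 645 and 506 CPM in bin 1, stood at 276 and 228 CPM in bin 2 and at 438 and 329 CPM at the top. Slc27a4 stayed between 108 and 162 CPM over bins 1 to 4 and reached 310 and 439 CPM in bin 5. Cd36 went from 35.3 and 39.96 CPM in bin 1 to 75.4 and 61.9 CPM in bin 5. Plin3 was highest at the top in both libraries, at 526 and 429 CPM, while Plin2 was lowest there, at 52.9 and 23.9 CPM.

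**Figure D3:**
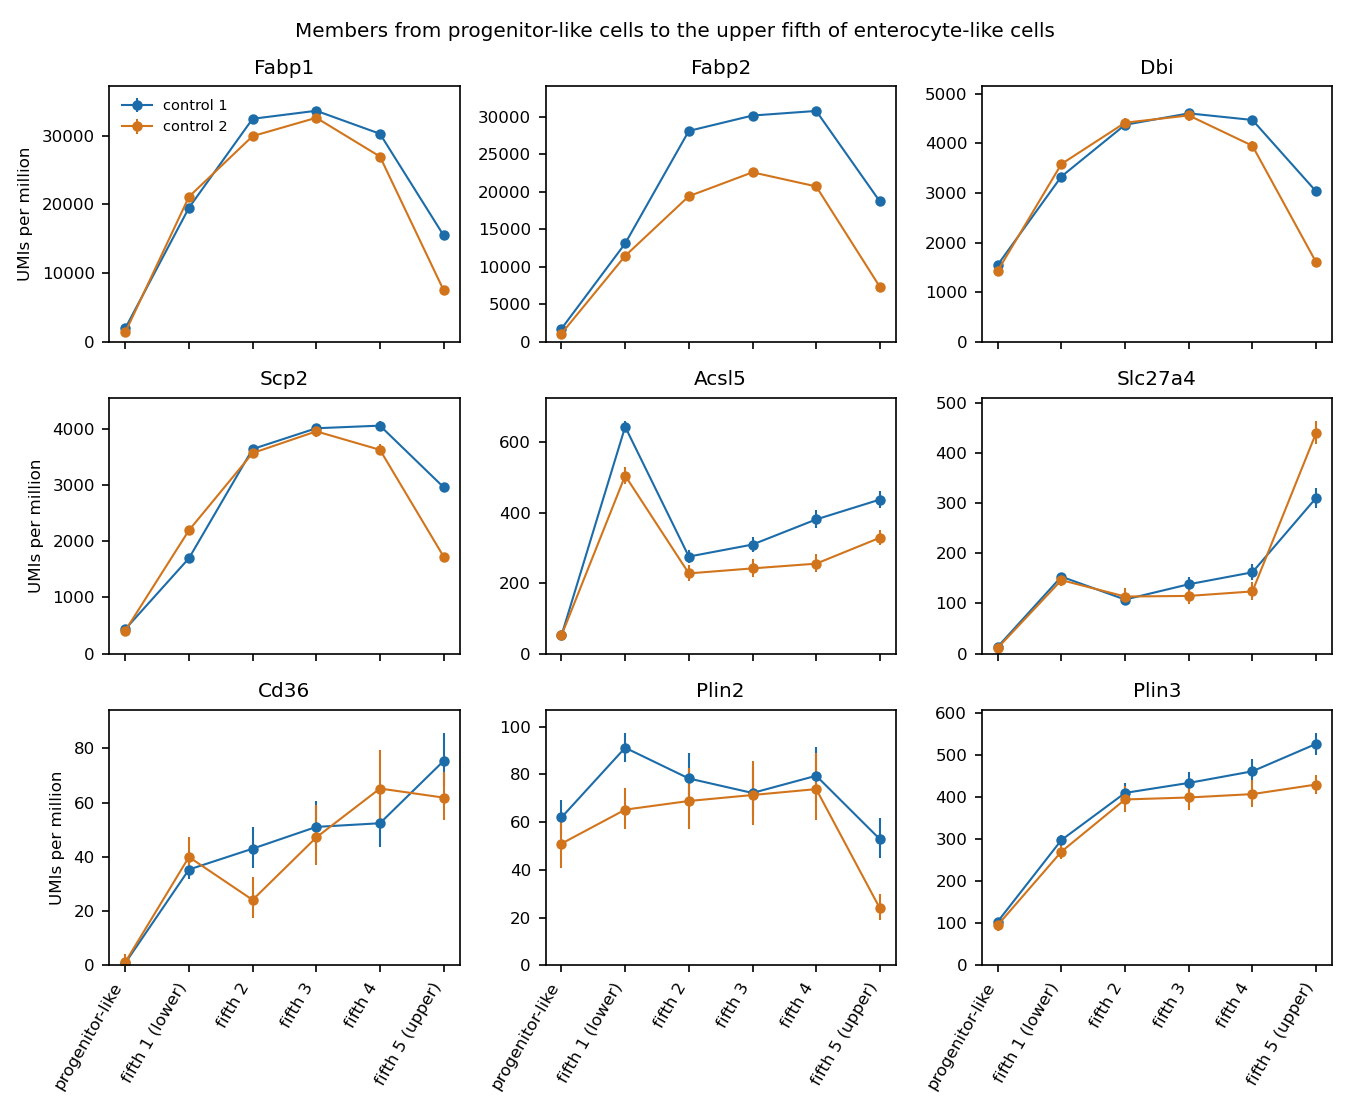
Level of each member (UMIs per 1000000, linear axes from 0) in progenitor-like cells and in 5 equal bins of the enterocyte-like cells of each library ordered by landmark genes, with exact 95% Poisson intervals. Fabp1, Fabp2, Dbi and Scp2 peak in bin 3 or 4, Acsl5 in bin 1, and Slc27a4 and Plin3 in bin 5.

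In the test of bin 5 against bin 1, 2 of the 9 members were higher and none was lower, where 13.6% of the 8800 tested genes were higher, 13.9% lower and 27.5% either. Slc27a4 was higher, at 310 and 439 CPM against 153 and 146 CPM (log2 fold change 1.48 ± 0.48, adjusted p = 0.0119). Cd36 was higher, at 75.4 and 61.9 CPM against 35.3 and 39.96 CPM (1.04 ± 0.39, adjusted p = 0.0336). In neither gene did the upper and the lower sums overlap. The other 7 did not pass: Plin2 (-0.93 ± 0.40, adjusted p = 0.0697), Plin3 (0.93 ± 0.49, 0.146), Fabp1 (-0.73 ± 0.60, 0.383), Dbi (-0.47 ± 0.55, 0.569), Acsl5 (-0.41 ± 0.49, 0.575), Scp2 (0.41 ± 0.55, 0.619) and Fabp2 (0.11 ± 0.59, 0.909). Of these, Plin2, Plin3, Fabp1, Dbi and Acsl5 also had upper and lower sums that did not overlap, so this trait does not set Slc27a4 and Cd36 apart. Scaling by total UMIs only ended both calls (Slc27a4 adjusted p = 0.0581, Cd36 0.104), and Cd36 passed in 7 of 13 alternatives. With cells thinned to 1000 UMIs, the Cd36 log2 fold change was 0.16 (adjusted p = 0.801).

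The upper villus values differed between Malat1-rich and Malat1-poor cells. Among Malat1-rich cells, divided into bins anew, Slc27a4 went from 169 and 168 to 483 and 574 CPM, but among Malat1-poor cells from 132 and 111 to 157 and 114 CPM, where its call was lost (log2 fold change 0.16, adjusted p = 0.620). Fabp1 went from 14753 and 15607 to 4888 and 1574 CPM in Malat1-rich cells (-2.16, adjusted p = 0.00747) and from 23843 and 30421 to 27588 and 26440 CPM in Malat1-poor cells (0.02, adjusted p = 0.984). Plin2 was lower at the top in Malat1-rich cells, at 19.4 and 5.26 against 81.1 and 60.1 CPM (-2.40, adjusted p = 4.09e-07), and did not pass in Malat1-poor cells (-0.11, adjusted p = 0.770). Courses over the 5 bins changed in Malat1-rich cells too. Acsl5 of control 1 was highest in bin 3, at 839 CPM against 782 CPM in bin 1. In control 2, Dbi was highest in bin 1, at 3048 CPM against 2401 CPM in bin 3, and Fabp1 in bin 2, at 18196 CPM. The difference between both kinds of cells was not itself tested. Cd36 was higher in bin 5 than in bin 1 in both kinds. It went from 44.9 and 35.7 to 85.8 and 58.8 CPM in Malat1-rich cells (1.12, adjusted p = 0.0174). In Malat1-poor cells it went from 24.7 and 44.1 to 63.6 and 50.2 CPM (0.89, adjusted p = 0.00176). Its highest level in Malat1-rich cells was not at the top but in bin 3, at 107 and 101 CPM. In Malat1-poor cells Plin3 (0.82, adjusted p = 0.000817) and Scp2 (0.75, adjusted p = 0.0387) were higher and Acsl5 (-0.59, adjusted p = 0.019) was lower at the top. Malat1-rich cells made up 20.7% and 25.2% of bin 1 and 23.2% and 47.7% of bin 5, and the 8 goblet markers stood at 1677 and 1158 against 1195 and 13499 CPM. Depth and mitochondrial share moved with the split as well. In bin 5, Malat1-rich cells had a median of 3857 and 13574.5 UMIs, 7.14% and 14.4% of them mitochondrial, against 1999 and 2229 UMIs and 0.176% and 0.183% in Malat1-poor cells. In bin 1, Malat1-rich cells had 41194 and 2360 UMIs and 7.403% and 0.417% mitochondrial UMIs. The part of these values in the differences was not tested.

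Over all enterocyte-like cells the members differed in both directions with Malat1. Fabp1 (13982 and 11034 CPM in rich against 30396 and 33088 in poor cells), Fabp2, Dbi, Scp2, Plin2 and Plin3 were lower in Malat1-rich cells, at 0.310 to 0.776 of the Malat1-poor level. Acsl5 (721 and 464 against 331 and 204 CPM), Slc27a4 and Cd36 were higher, by 1.63 to 4.10 times. Of the reference transcripts, Rbp2 was lower in Malat1-rich cells (0.469 and 0.346). Alpi (2.60 and 2.82), Sis (2.30 and 2.38), Lct (3.12 and 5.63), Apoa4 (2.39 and 2.85) and Reg1 (2.23 and 2.13) were higher by over 2 times, Apoa1 (1.504 and 1.43) and Apoc3 (1.17 and 1.11) by less. This grouping was seen in the values and is a description with no test.

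The members also differed between the 8 enterocyte-like clusters, which were made without them. In the cluster led by Clca4a and Ly6m (54 and 126 cells, 92.6% and 90.5% of them in bin 5), Fabp1 was at 1718 and 924 CPM, its lowest of the 8 clusters, and Slc27a4 at 607 and 534 CPM, its highest. Mitochondrial UMIs had a median of 13.1% and 16.2% in that cluster, against 0.175% and 0.185% over all enterocyte-like cells. Clusters led by Reg1 and Mgam (191 and 72 cells, a median of 43771 and 41627.5 UMIs) and by Apoa1 and Selenop (547 and 375 cells) had the highest Acsl5, at 780 and 614 and at 712 and 706 CPM, with Fabp1 at 15016 and 12396 and at 22265 and 21932 CPM. In the other 5 clusters, Fabp1 was between 26194 and 44220 CPM, Acsl5 between 43.0 and 90.8 CPM and Slc27a4 between 13.0 and 60.5 CPM. Cd36 was highest in the Apoa1 cluster, at 124 and 104 CPM. Fabp1 spanned 22.7 and 47.9 times between its lowest and its highest cluster, Slc27a4 34.0 and 41.0 times, and Plin3 only 2.10 and 1.961 times.

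**Figure D4:**
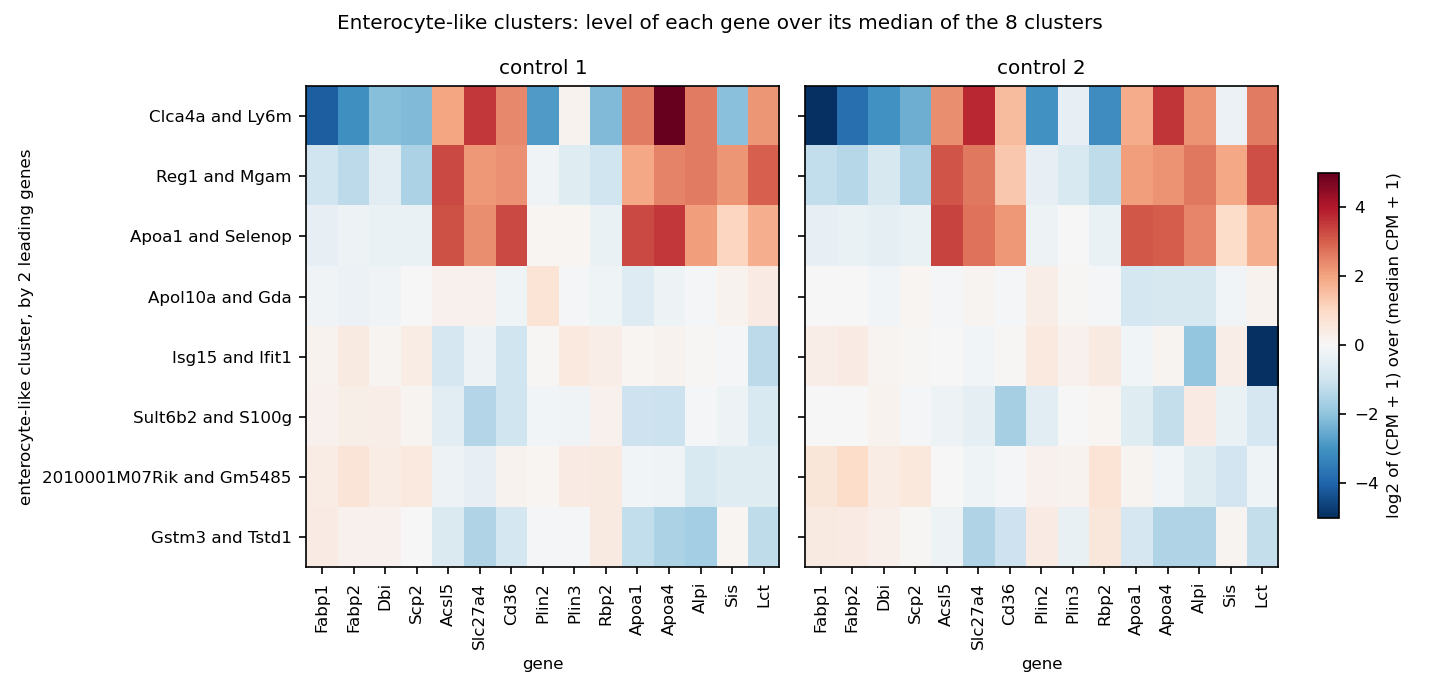
Each square is the log2 of a gene's CPM + 1 in an enterocyte-like cluster over the median of the 8 clusters + 1, per library, with colours that stop at 5 either way; rows are clusters named by 2 leading genes, columns are the 9 members and 6 reference transcripts. Rows are ordered by Fabp1 in control 1, lowest at the top, so its low values in the upper rows there are set by the order. In the upper 3 rows Acsl5, Slc27a4 and Cd36 are above their medians and Fabp1, Fabp2 and Scp2 below theirs. The darkest Lct square of control 2 is a count of 0.

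Because Fabp1 and Fabp2 are so abundant, their UMIs were counted in barcodes of cells that should lack them. Red cell barcodes, with over 50% hemoglobin UMIs, numbered 522 and 683, and 488 and 661 of them had under 500 genes and were therefore outside the kept cells. They held 718 (95% interval 690.5 to 746) and 375 (357 to 393) CPM of Fabp1 and 652 and 268 CPM of Fabp2, a mean of 4.95 and 2.57 Fabp1 UMIs a barcode. The median barcode held 1 Fabp1 UMI in both libraries, and the single highest barcode of each carried 11.3% and 11.2% of the Fabp1 sum. Of the UMIs of red cell barcodes other than hemoglobin, 9973 and 5890 per 1000000 were Fabp1. A Fabp1 UMI was seen in 69.3% and 63.0% of them at a median of 6090.5 and 5210 UMIs, and in 80.5% and 76.6% of T/NK-like cells at 5155 and 4617.5 UMIs. Thinned to 1000 UMIs a barcode, these shares were 30.4% and 25.04%, and 37.4% and 35.6%, against 99.0% and 95.8% in enterocyte-like cells. Both kinds of barcodes thus held Fabp1, at a higher level in control 1 than in control 2.

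The ratio of Fabp2 to Fabp1 was nearly the same in each of these barcodes as in enterocytes. Fabp2 per 100 Fabp1 UMIs was 85.3 in enterocyte-like cells, 90.9 (85.9 to 96.1) in red cell barcodes and 89.9 (87.8 to 92.0) in T/NK-like cells of control 1. In control 2 it was 67.8, 71.5 (66.4 to 76.9) and 70.3 (67.2 to 73.4). Rbp2 behaved alike, with 77.0, 73.5 and 75.0 per 100 in control 1 and 74.2, 70.9 and 71.9 in control 2. The Fabp2 ratio thus differed more between the libraries than between these cell types of 1 library. Other reference transcripts did not keep the ratio of the summed enterocyte-like cells, which itself changed with the cells summed. Apoa1 stood at 7337 and 7942 CPM beside 30396 and 33088 CPM of Fabp1 in Malat1-poor enterocyte-like cells. In Malat1-rich ones it stood at 11032 and 11355 CPM beside 13982 and 11034 CPM. The part of this in the departures below was not tested. In control 1, Apoa1, Apoa4, Apoc3, Reg1, Alpi, Sis and Lct were all lower per 100 Fabp1 UMIs in red cell and T/NK-like barcodes. In the order used above, Apoa1 was 37.0, 22.4 and 22.0 there, and Reg1 23.6, 7.58 and 9.14. In control 2 Apoa1 was 46.5, 28.3 and 33.7 and Reg1 13.7, 8.37 and 6.84, but Alpi was 2.33, 2.56 and 2.12. Progenitor-like cells had 88.9 and 80.0 Fabp2 UMIs per 100 of Fabp1, and the part of free RNA in their levels was not tested.

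Other members departed from the enterocyte ratio in immune cells. Dbi per 100 Fabp1 UMIs was 15.7 and 15.9 in enterocyte-like cells and 15.7 and 17.8 in red cell barcodes, but 34.7 and 43.9 in T/NK-like and 53.1 and 37.6 in myeloid-like cells. Scp2 was 11.5 and 12.9, 13.6 and 15.7, 28.9 and 38.7, and 34.0 and 27.1 in the same order. Acsl5 was 2.05 and 1.64 in enterocyte-like cells, 1.04 and 1.14 in red cell barcodes and 5.47 and 10.15 in T/NK-like cells. Levels of these 3 genes in T/NK-like cells were thus above what the enterocyte ratio to Fabp1 gives, in both libraries.

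Plin2 and Cd36 stood apart in other cell types. Plin2 per 100 Fabp1 UMIs was 0.335 and 0.268 in enterocyte-like cells, 1.95 and 3.74 in T/NK-like cells, 11.7 and 7.38 in myeloid-like cells and 6.49 and 17.9 in mast cell-like cells. Its level was higher in myeloid-like cells (191 and 166 CPM, from 93 and 31 UMIs) than in enterocyte-like cells (79.9 and 56.4 CPM). Cd36 was 0.195 and 0.228 per 100 Fabp1 UMIs in enterocyte-like cells, 1.76 and 2.62 in myeloid-like cells and 0.503 (0.267 to 0.862) and 1.99 (1.38 to 2.78) in red cell barcodes, the last from 13 and 35 UMIs. In T/NK-like cells Cd36 was 0.118 and 0.185, with intervals of 0.0686 to 0.189 and 0.0845 to 0.351.

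**Figure D5:**
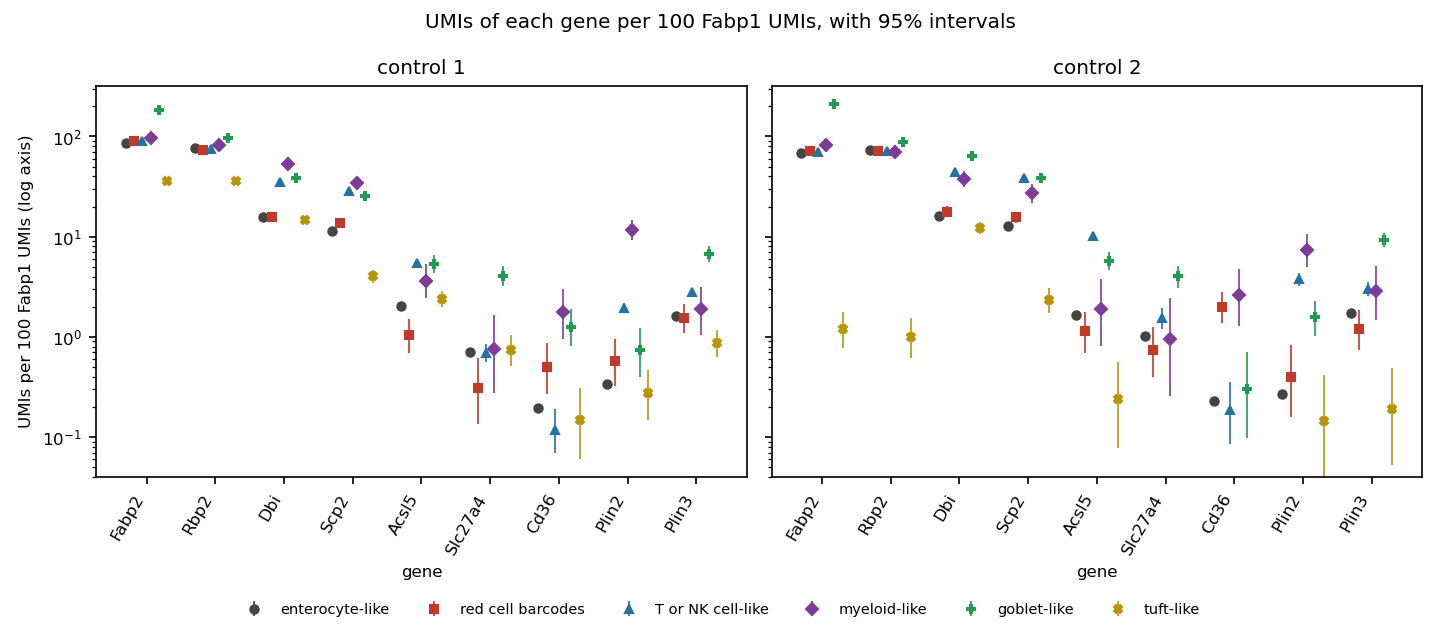
UMIs of each gene per 100 Fabp1 UMIs (log axis) in 6 kinds of barcodes, with 95% intervals that cover counting error only; a count of 0 has no point (Slc27a4 and Cd36 in tuft-like cells of control 2). Fabp2 and Rbp2 lie together in enterocyte-like, red cell, T/NK-like and myeloid-like barcodes, goblet-like cells lie above them for Fabp2 and tuft-like cells below.

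Other genes of the pathway were counted in 8 lists of 68 genes. Of the 50 tested between enterocyte-like and other epithelial cells, 26 were higher and 12 lower, with a median log2 fold change of 0.69. Over all 11529 genes tested in that comparison, 26.4% were higher and 24.2% lower. All members moved one way there, but the other fatty acid binding proteins did not: Fabp5 was lower in enterocyte-like cells (2.47 and 0.875 against 34.3 and 121 CPM, log2 fold change -4.74 ± 0.81, adjusted p = 0.0074), as was Fabp3 (-3.18 ± 0.77, adjusted p = 0.0214). Fabp5 was higher in progenitor-like than in enterocyte-like cells (39.1 and 161 CPM, 4.93 ± 0.57, adjusted p = 7.75e-05). Fabp1 and Fabp5 thus lay on opposite sides of the crypt to villus step in both libraries.

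Among re-esterification genes, 7 of 9 were higher in enterocyte-like cells and none was lower, led by Mogat2, a monoacylglycerol acyltransferase (193 and 139 against 13.2 and 7.25 CPM, 4.42 ± 0.21, adjusted p = 0.00105), and Dgat2, which makes triglyceride (3.38 ± 0.22, adjusted p = 0.00109). Of 10 lipid droplet genes tested, 6 were higher and 3 lower: Cidec, a droplet fusion gene (4.29 ± 0.40, adjusted p = 0.00163), and Lipe, a lipase (3.35 ± 0.26, adjusted p = 0.00126), led one side, Mgll (-5.55 ± 0.35, adjusted p = 0.00108) and Cidea (-4.59 ± 0.70, adjusted p = 0.00525) the other. Of 11 transcription factors 9 were higher, led by Creb3l3 (4.31 ± 0.39, adjusted p = 0.00152) and Ppargc1a (3.55 ± 0.21, adjusted p = 0.00105). Ppara, a nuclear receptor for fatty acids, did not pass (0.63 ± 0.29, adjusted p = 0.124). All 4 tested fatty acid receptors were lower, and in goblet-like cells Ffar4 was higher than in enterocyte-like cells (27.6 and 56.1 against 0.0969 and 1.14 CPM, 6.39 ± 0.46, adjusted p = 0.000243). Of the acyl-CoA binding proteins 2 of 4 were higher, with Acbd4 first (2.76 ± 0.19, adjusted p = 0.0011), of the synthetases and transport proteins 2 of 7 were higher, with Slc27a2 first (1.73 ± 0.22, adjusted p = 0.00319), and of the 3 surface uptake genes none passed.

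Between bins 5 and 1, 12 of 38 tested list genes were higher and 8 lower, where 13.6% of all 8800 tested genes were higher and 13.9% lower. Both counts were smaller in Malat1-poor cells, as given in the closing section. The genes named next are given for all enterocyte-like cells, and the part of Malat1-rich cells in their values was not tested. Acsl3, another long-chain acyl-CoA synthetase, was higher at the top (60.0 and 185 against 3.96 and 3.45 CPM, 4.89 ± 0.50, adjusted p = 8.3e-20). Cidec (148 and 215 against 33.5 and 24.4 CPM, 2.81 ± 0.47, adjusted p = 1.05e-07), Lpin2 (2.76 ± 0.50, adjusted p = 1.51e-06), Dgat2 (1.80 ± 0.47, adjusted p = 0.00124) and Scarb1, a lipoprotein receptor gene (1.78 ± 0.40, adjusted p = 0.000109), were higher too. Ppara (23.8 and 7.01 against 68.8 and 45.7 CPM, -1.87 ± 0.39, adjusted p = 3.39e-05), Fitm2 (-2.23 ± 0.50, adjusted p = 0.000141) and Mogat2 (-1.25 ± 0.46, adjusted p = 0.0278) were lower. The list of re-esterification genes was thus split, with 4 higher and 1 lower of 9.

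The genes whose course was most like that of each member were found by Pearson's r of log2(CPM + 1) over 14 sums: progenitor-like cells, 5 bins and goblet-like cells in each library. Among 2808 genes, Rbp2 came first for Fabp1 (r = 0.996), Acaa1b for Fabp2 (0.991), Slc25a5 for Dbi (0.998) and Prdx5 for Scp2 (0.999). Mttp, which loads lipid onto lipoproteins, came first for Acsl5 (0.988), Emp1 for Slc27a4 (0.984, with Creb3l3 the third at 0.983), and Lct, the lactase gene, for Cd36 (0.991). Uqcr10 came first for Plin2 (0.988) and Phyh for Plin3 (0.984). The sums share libraries, and each r is a description.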

How the data were processed

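The 2 control libraries of proximal small intestine were measured by droplet single-cell RNA sequencing. The deposited matrices hold whole UMI counts per gene and barcode, made by the authors with Cell Ranger 7.1.0 per the file headers; the submitters' processing notes name Cell Ranger 6.1 and 7.1.0 and GRCm38 (mm10). Intron counting and the barcode rule are not given in the sources used here.

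From these counts, barcodes with at least 500 genes and under 25% mitochondrial UMIs were kept. Doublets were called with Scrublet at a rate of 0.06; it called 5 and 28 barcodes, under 0.5% in control 1, where it is taken not to have worked. Cells of both libraries were clustered together (scanpy 1.11.5, 2000 variable genes, 40 components, 15 neighbours, Leiden resolution 1) without the members, pathway lists, reference transcripts and landmarks, and each of 30 clusters was named by marker scores, so class names were rebuilt here. Summed counts were tested with edgeR 4.0.16 (R 4.3.3; TMM, filterByExpr, quasi-likelihood, library block, 1 residual degree of freedom) with Benjamini-Hochberg adjustment at 0.05, leaving out genes used to cluster, name or place cells. Intervals are exact 95% and cover counting error only, and a count of 0 allows up to 3 counts. The edgeR fits were tested on simulated data. DESeq2 1.42.0 and other alternatives are given in the closing section.

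All 9 members were named in each comparison, with at most 2 genes per list and direction by size among those past the threshold, and the 3 genes most like each member. Members and lists were chosen with earlier results of these data known. The Ppara value and the Fabp1 and Fabp5 contrast were picked after their values were seen. Promoters are RefSeq, GRCm38.p6; gene positions are GENCODE M21. Protein sequences are not used here.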

Additional observations from a re-analysis of the deposited data

How the results depend on the processing

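The calls of all 9 members against the other epithelial classes held in 11 of 11 alternatives; Plin2 in progenitors and Cd36 in goblet-like cells lost theirs as given above. Counts that moved by over 1.5 times follow, with the value under the main design in brackets; the cause was not tested. Enterocyte-like against other classes: without the library block 1866 genes were higher (3047), and thinned to 1000 UMIs 1784 were higher and 1787 lower (2786), with 17 (26) and 4 (12) list genes. Progenitor-like: by total UMIs only 2206 genes were lower (3374) and 11 list genes higher (6), by DESeq2 2076 were higher (3248), and thinned 1794 were higher and 1788 lower. Goblet-like: in Malat1-poor cells 887 genes were higher (2264) and 877 lower (2785), with 10 list genes lower (24), and in Malat1-rich cells 3 list genes were higher (5).

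Bin 5 against bin 1: members higher (2) numbered 0 by total UMIs only, 1 each without the filter, by DESeq2, without the block and with each library clustered by itself, and 4 below 10% mitochondrial UMIs. Members lower (0) numbered 1 each by total UMIs only, thinned, without the 6% highest doublet scores, by share of landmark UMIs and in Malat1-poor cells, and 2 in Malat1-rich cells. Genes higher (1194) and lower (1225) numbered 793 and 668 by DESeq2, 601 and 572 without the block, 460 and 497 thinned, and 686 and 779 in Malat1-poor cells, with 1943 lower in Malat1-rich cells. List genes higher (12) and lower (8) numbered 6 and 2 thinned and 6 and 5 in Malat1-poor cells, with 4 lower without the block. The log2 fold change turned for Fabp2 by total UMIs only (-0.066) and in Malat1-rich cells (-0.87), for Scp2 in Malat1-rich cells (-0.049), for Fabp1 below 10% mitochondrial UMIs (0.14) and in Malat1-poor cells (0.017), and for Dbi in the same 2 settings (0.19 and 0.11); none of these passed. The library block pairs sides of 1 library; without this block Cd36 did not pass (adjusted p = 0.0669) and Slc27a4 did (0.0487).

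Mean Fabp1 was 303 CPM in red cell barcodes over 80% hemoglobin (546 over 50%) and 494 CPM in T/NK-like cells without the 6% highest doublet scores (831). The Malat1 split was chosen after seeing the data. The progenitor comparison with each library clustered by itself was not run, since 1 library then had 0 progenitor-like cells. Cd36 and the classes with few cells rest on small counts, and only 2 libraries give the spread behind each p-value.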
